A study of Mus musculus with 42 samples.

Results

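The 10 genes described here act in the prostaglandin and leukotriene pathway. They were chosen by name as the genes whose Ensembl identifier in the count table maps to Pla2g4a, Ptgs1, Ptgs2, Ptges, Hpgds, Tbxas1, Hpgd, Ptger4, Alox5 or Alox5ap. They are 10 of the 37310 genes in the table and all 10 passed the filter on low counts, which left 11624 genes to test. Their RNA-seq counts come from 42 libraries of mouse macrophages (BMDM) that had been grown from femur and tibia marrow and differentiated in culture before treatment. Libraries were labelled WT or KO, where KO stands for a deletion of Irf5, an interferon regulatory transcription factor, made by crossing Irf5 flox/flox mice with LysM-Cre mice, so that Cre is driven by the Lyz2 locus in myeloid cells. The mice were males of C57BL/6 background, 7 to 10 weeks of age. For each label there were 7 groups of 3 libraries. These were Control at 0, 2 and 24 h, palmitate (a saturated fatty acid, added with albumin) at 2 and 24 h, and lipopolysaccharide (LPS, the bacterial stimulus of Toll-like receptor 4) at 2 and 24 h.

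Total counts lay between 2848793 and 7743442 per library (median 5625399), and 3 counts corresponded to 0.387 to 1.05 CPM (counts scaled to library size after TMM normalization), a floor that covers counting error only. The labels do not say whether the libraries of a group came from separate mice or cultures, so each p-value measures the spread between these libraries, which may be technical. Irf5 itself ranged from 209.5 to 389 CPM in the 21 libraries labelled WT and from 267 to 430.5 CPM in the 21 labelled KO. It was therefore not lower under the KO label (at Control 0 h the log2 fold change of KO against WT was 0.47 with SE 0.06, adjusted p = 9.12e-08), and counts per gene do not separate the floxed exons from the rest of the gene, so the deletion could not be checked. Lyz2, the locus that carries Cre, was lower under the KO label in all 7 conditions, with log2 fold changes from -0.51 at Control 0 h to -1.11 at LPS 24 h. Every genotype comparison is therefore given as one between libraries carrying those labels. All 8 macrophage markers examined (Adgre1, Csf1r, Cd68, Itgam, Mertk, Fcgr1, Mrc1 and Cd14) passed the filter, with a summed level between 5217 and 9051 CPM.

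As background, cytosolic phospholipase A2 frees arachidonic acid from membranes, and the acid then enters either of 2 routes. Cyclooxygenases convert it to prostaglandin H2, from which dedicated synthases make prostaglandin E2, prostaglandin D2 or thromboxane A2, while 5-lipoxygenase with its activating protein begins leukotriene synthesis. Macrophages are a major source of these lipids, the inducible cyclooxygenase and prostaglandin E synthase are known inflammatory genes, and prostaglandin E2 acts back on macrophages through receptors that include EP4.

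The 250 bases before the RefSeq start of 6 members are shown first (assembly GRCm38.p6, each read 5′ to 3′ on the strand of the gene). Ptgs2, Ptges and Ptger4 are shown because their counts rose with LPS, Hpgd and Ptgs1 because theirs fell, and Hpgds because its window held the same 8 letters as that of Ptgs1. Capitals mark a match to any of the searched motifs.
Ptgs2, chr1:150099781-150100030, plus strand: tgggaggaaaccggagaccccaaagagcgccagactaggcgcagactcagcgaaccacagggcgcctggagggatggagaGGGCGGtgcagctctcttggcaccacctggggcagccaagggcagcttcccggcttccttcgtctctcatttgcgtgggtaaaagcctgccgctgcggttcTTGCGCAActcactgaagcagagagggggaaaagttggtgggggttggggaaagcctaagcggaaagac
Ptges, chr2:30903298-30903547, minus strand: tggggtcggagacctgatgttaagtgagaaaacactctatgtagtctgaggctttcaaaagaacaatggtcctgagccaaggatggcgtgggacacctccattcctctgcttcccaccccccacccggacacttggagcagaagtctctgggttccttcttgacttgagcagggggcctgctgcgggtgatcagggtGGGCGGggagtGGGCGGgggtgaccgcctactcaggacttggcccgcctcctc
Ptger4, chr15:5244188-5244437, minus strand: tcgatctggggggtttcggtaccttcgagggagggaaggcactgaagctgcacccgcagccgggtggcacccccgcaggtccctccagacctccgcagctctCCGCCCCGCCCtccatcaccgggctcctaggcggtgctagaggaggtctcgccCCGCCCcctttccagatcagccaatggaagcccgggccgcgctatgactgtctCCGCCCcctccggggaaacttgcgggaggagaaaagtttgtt
Hpgd, chr8:56294302-56294551, plus strand: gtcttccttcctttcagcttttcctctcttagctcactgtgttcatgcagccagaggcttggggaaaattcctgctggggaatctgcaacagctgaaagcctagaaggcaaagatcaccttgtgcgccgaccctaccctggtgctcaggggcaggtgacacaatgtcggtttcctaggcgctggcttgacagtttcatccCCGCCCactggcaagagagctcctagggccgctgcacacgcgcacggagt
Ptgs1, chr2:36230176-36230425, plus strand: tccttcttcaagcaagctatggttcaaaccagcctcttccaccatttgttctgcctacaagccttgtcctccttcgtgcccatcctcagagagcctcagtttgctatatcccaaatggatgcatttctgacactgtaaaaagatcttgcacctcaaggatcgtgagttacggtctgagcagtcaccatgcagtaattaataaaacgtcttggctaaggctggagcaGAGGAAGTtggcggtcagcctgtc
Hpgds, chr6:65144731-65144980, minus strand: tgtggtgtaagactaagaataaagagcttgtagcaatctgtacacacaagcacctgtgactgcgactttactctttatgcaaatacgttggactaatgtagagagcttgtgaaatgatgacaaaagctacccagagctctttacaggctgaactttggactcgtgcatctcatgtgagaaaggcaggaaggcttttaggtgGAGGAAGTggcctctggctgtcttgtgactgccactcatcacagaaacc

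RefSeq windows were matched for 9 of the 10 members, all but Alox5ap, and 9 motifs were searched on both strands. The C/EBP letters TTGCGCAA, which read the same on both strands, stood in the Ptgs2 window from base -69 to base -62, counting -1 as the base just before the start. The same letters stood in 0.164% of 32851 mouse promoter windows of this length. The PU.1 letters GAGGAAGT stood at -24 to -17 in Ptgs1 and at -49 to -42 in Hpgds, and in 2.44% of all windows. The GC box GGGCGG was found once in Ptgs2, Hpgd and Alox5, 2 times in Ptges and 4 times in Ptger4, where the first 2 matches share a base, and in 32.7% of all windows. The AP-1 letters TGANTCA (6.75% of all windows) and the TATA letters TATAAA (12.4%) were found in the Tbxas1 window, and the TATA letters also in 1 of 2 windows of Pla2g4a. The NF-kappaB motif (3.9%), the interferon-stimulated response element (2.98%), the cyclic AMP half-site TGACGT (6.47%) and the E-box CACGTG (6.02%) matched in 0 windows of the members, which says only that these letters are absent from those bases. The C/EBP and GC box letters were chosen with these sequences in view, and a match is a description of letters and not of a bound site. The RefSeq start differs from the outermost gene boundary given by GENCODE for Ptges, Tbxas1, Hpgd, Hpgds and 1 of the Pla2g4a windows. The windows of Ptges and Tbxas1 and most of that of Hpgds lie inside the gene as GENCODE bounds it. So does the Pla2g4a window that holds the TATA letters.

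Before stimulation the pathway was dominated by genes other than the inducible enzymes. To compare genes with each other, levels were divided by the union length of their exons, giving CPM per kb. In WT Control 0 h, Alox5ap, which encodes the membrane protein that presents arachidonic acid to 5-lipoxygenase, was highest at 91.4 ± 10.5 CPM per kb (SD, n = 3), followed by Hpgd, the gene of the prostaglandin-inactivating dehydrogenase, at 57.1 ± 3.84 CPM per kb. Hpgds (19.9 ± 0.507 CPM per kb) and Tbxas1 (17.5 ± 0.901 CPM per kb) came next, then Ptgs1 (9.12 ± 0.982 CPM per kb), Pla2g4a (6.09 ± 0.271 CPM per kb), Ptger4 (3.06 ± 0.513 CPM per kb) and Alox5 (1.74 ± 0.487 CPM per kb). Ptges (0.807 ± 0.0611 CPM per kb) and Ptgs2 (0.361 ± 0.114 CPM per kb) were lowest, and no 2 neighbours in this order overlapped within 1 SD. This order changed with LPS. At WT LPS 2 h, Ptgs2 stood at 63.1 ± 8.2 CPM per kb, within 1 SD of Alox5ap at 71 ± 5.49 CPM per kb. At WT LPS 24 h, Ptges was in place 2 at 18.6 ± 2.58 CPM per kb, and Hpgd had gone to place 9 at 2.62 ± 0.63 CPM per kb, within 1 SD of Ptgs2 at 3.75 ± 1.21 CPM per kb. Between group means, Ptgs2 spanned 223-fold, Hpgd 33.6-fold and Ptges 29.4-fold over the 14 groups, whereas Tbxas1 and Alox5ap spanned 1.55-fold and 1.58-fold.

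**Figure D1:**
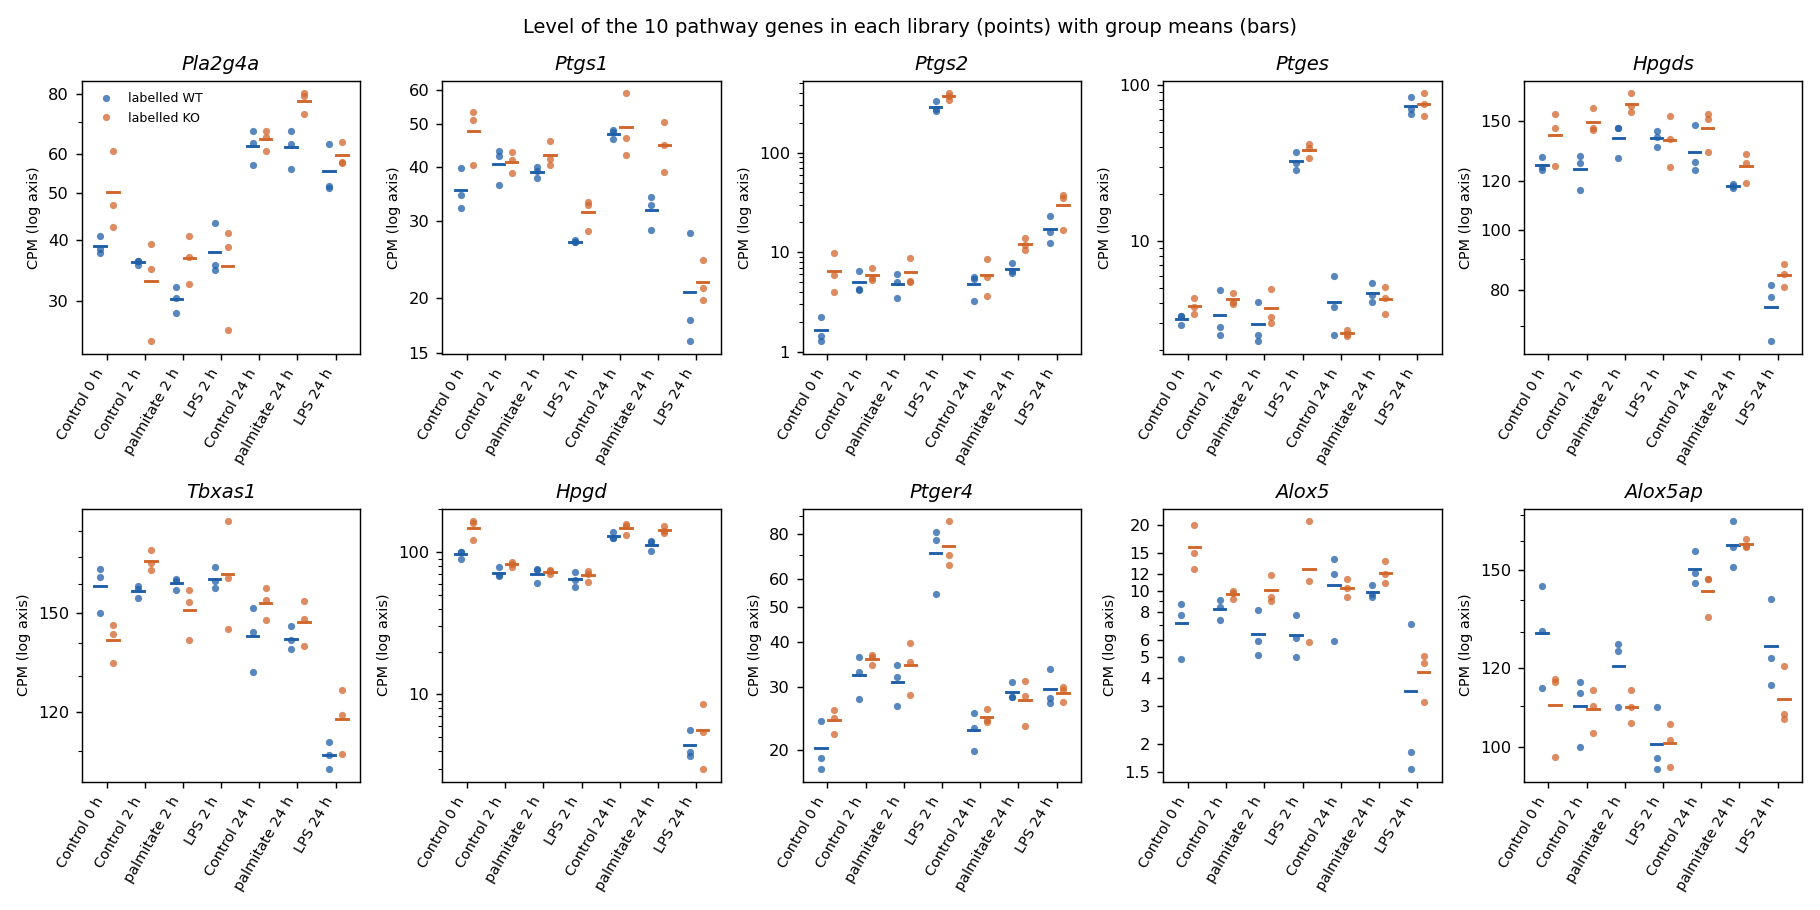
Level of each of the 10 genes in CPM (TMM-scaled, log axis, a separate scale in each panel) in the 7 conditions, with 1 point per library, blue for libraries labelled WT and orange for those labelled KO, and bars for the means of 3 libraries. Ptgs2 was highest in all 6 LPS 2 h libraries, Ptges was highest and Hpgd lowest in all 6 LPS 24 h libraries, and Tbxas1 and Alox5ap moved least.

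LPS changed several steps of the prostaglandin branch within 2 h. Of the 10 genes, 4 were called at an adjusted p under 0.05 in the libraries labelled WT, where 23.1% of all genes tested were called, and the 4 were Ptgs2, Ptges and Ptger4 (higher) and Ptgs1 (lower). In those labelled KO the 4 genes called were again these, beside 23.9% of all genes. By 24 h, 9 genes were called in WT (background 39.5%) and 8 in KO (background 40.9%), 6 of them lower in each label beside 19.9% of all genes in WT and 21% in KO. The median log2 fold change of the 10 genes was 0.06 in WT and 0.04 in KO at 2 h, and -0.32 and -0.36 at 24 h, beside -0.01 over all genes tested in each of the 4 comparisons. Both LPS and palmitate were set against the same Control libraries, so the comparisons of these stimuli are not independent of each other.

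Release of arachidonic acid is the first step. Pla2g4a (cytosolic phospholipase A2 alpha; ENSMUSG00000056220, chromosome 1, 149829618 to 149961290, minus strand, GRCm38) gave 36.2, 35.6 and 36.3 CPM in WT Control 2 h and 34.7, 35.6 and 43.5 CPM in WT LPS 2 h. In KO the values were 24.8, 39.2 and 34.9 CPM in Control and 26.2, 38.7 and 41.3 CPM in LPS. The groups overlapped under both labels, with log2 fold changes of 0.09 with SE 0.14 (adjusted p = 0.711) in WT and 0.14 with SE 0.14 (adjusted p = 0.533) in KO. At 24 h the fold changes were -0.18 with SE 0.12 (adjusted p = 0.242) and -0.11 with SE 0.12 (adjusted p = 0.515), so that Pla2g4a was the only one of the 10 genes called under LPS at neither time in either label. Its gene lies 138740 bp from Ptgs2 on chromosome 1.

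The cyclooxygenases moved in opposite directions. Ptgs2 (the inducible cyclooxygenase-2; ENSMUSG00000032487, chromosome 1, 150100031 to 150108227, plus strand, GRCm38) stood at 4.26, 6.45 and 4.15 CPM in WT Control 2 h and at 275, 331 and 259.8 CPM in WT LPS 2 h. In KO it went from 5.25, 6.98 and 5.43 CPM to 395, 374 and 337 CPM. Every LPS 2 h library lay far above every Control library, with 58.1-fold higher levels in WT (log2 fold change 5.86 with SE 0.22, adjusted p = 6.51e-28) and 62.4-fold in KO (log2 fold change 5.96 with SE 0.22, adjusted p = 1.12e-28).

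Most of that rise was gone by 24 h. Ptgs2 then gave 5.33, 5.66 and 3.21 CPM in WT Control and 16.1, 23.2 and 12.2 CPM in WT LPS, while KO gave 8.44, 3.65 and 5.66 CPM and 34.7, 16.6 and 37.6 CPM. The groups still did not overlap in either label, at 3.73-fold in WT (log2 fold change 1.9 with SE 0.29, adjusted p = 4.66e-07) and 5.28-fold in KO (log2 fold change 2.4 with SE 0.26, adjusted p = 3.46e-11). The difference between the 24 h and 2 h effects of LPS was called for 8 of the 10 genes in WT (background 32.6%) and for 8 in KO (background 33.4%). For Ptgs2 it was -3.96 with SE 0.45 (adjusted p = 3.91e-10) on the log2 scale in WT and -3.56 with SE 0.40 (adjusted p = 3.56e-10) in KO.

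Ptgs1 (the constitutive cyclooxygenase-1; ENSMUSG00000047250, chromosome 2, 36230426 to 36252272, plus strand, GRCm38) fell. It gave 43.6, 36.2 and 42.2 CPM in WT Control 2 h and 26.8, 26.9 and 27.1 CPM in WT LPS 2 h, a log2 fold change of -0.59 with SE 0.14 (adjusted p = 0.00113). In KO the values were 43.2, 41.4 and 38.7 CPM and 32.6, 33.2 and 28.5 CPM, a log2 fold change of -0.39 with SE 0.14 (adjusted p = 0.0368). The groups did not overlap in either label, but the KO call was lost without KO Control 2 h library 1 (adjusted p = 0.0993) or 2 (0.0663), or without KO LPS 2 h library 3 (0.148).

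At 24 h the fall of Ptgs1 was larger. Control gave 48.6, 46.3 and 47.9 CPM in WT and 58.8, 46.5 and 42.6 CPM in KO. LPS gave 17.8, 28.1 and 15.9 CPM and 19.8, 21.1 and 24.5 CPM, with WT LPS 24 h library 2 above the other LPS libraries. Levels were 2.31-fold lower in WT (log2 fold change -1.21 with SE 0.14, adjusted p = 3.08e-10) and 2.23-fold lower in KO (log2 fold change -1.16 with SE 0.14, adjusted p = 6.44e-10), again with no overlap.

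Within each library the ratio of Ptgs2 to Ptgs1, both in CPM per kb, was 0.0829, 0.151 and 0.0833 in WT Control 2 h and 8.71, 10.4 and 8.13 in WT LPS 2 h. In KO it was 0.103, 0.143 and 0.119 and 10.3, 9.55 and 10.0. The RNA of cyclooxygenase-2 thus exceeded that of cyclooxygenase-1 per length in all 6 LPS 2 h libraries and in no Control library. At LPS 24 h the ratio was 0.766, 0.698 and 0.652 in WT and 1.49, 0.668 and 1.31 in KO. All WT libraries and KO library 2 were back under 1, and no test was run on the ratio.

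**Figure D2:**
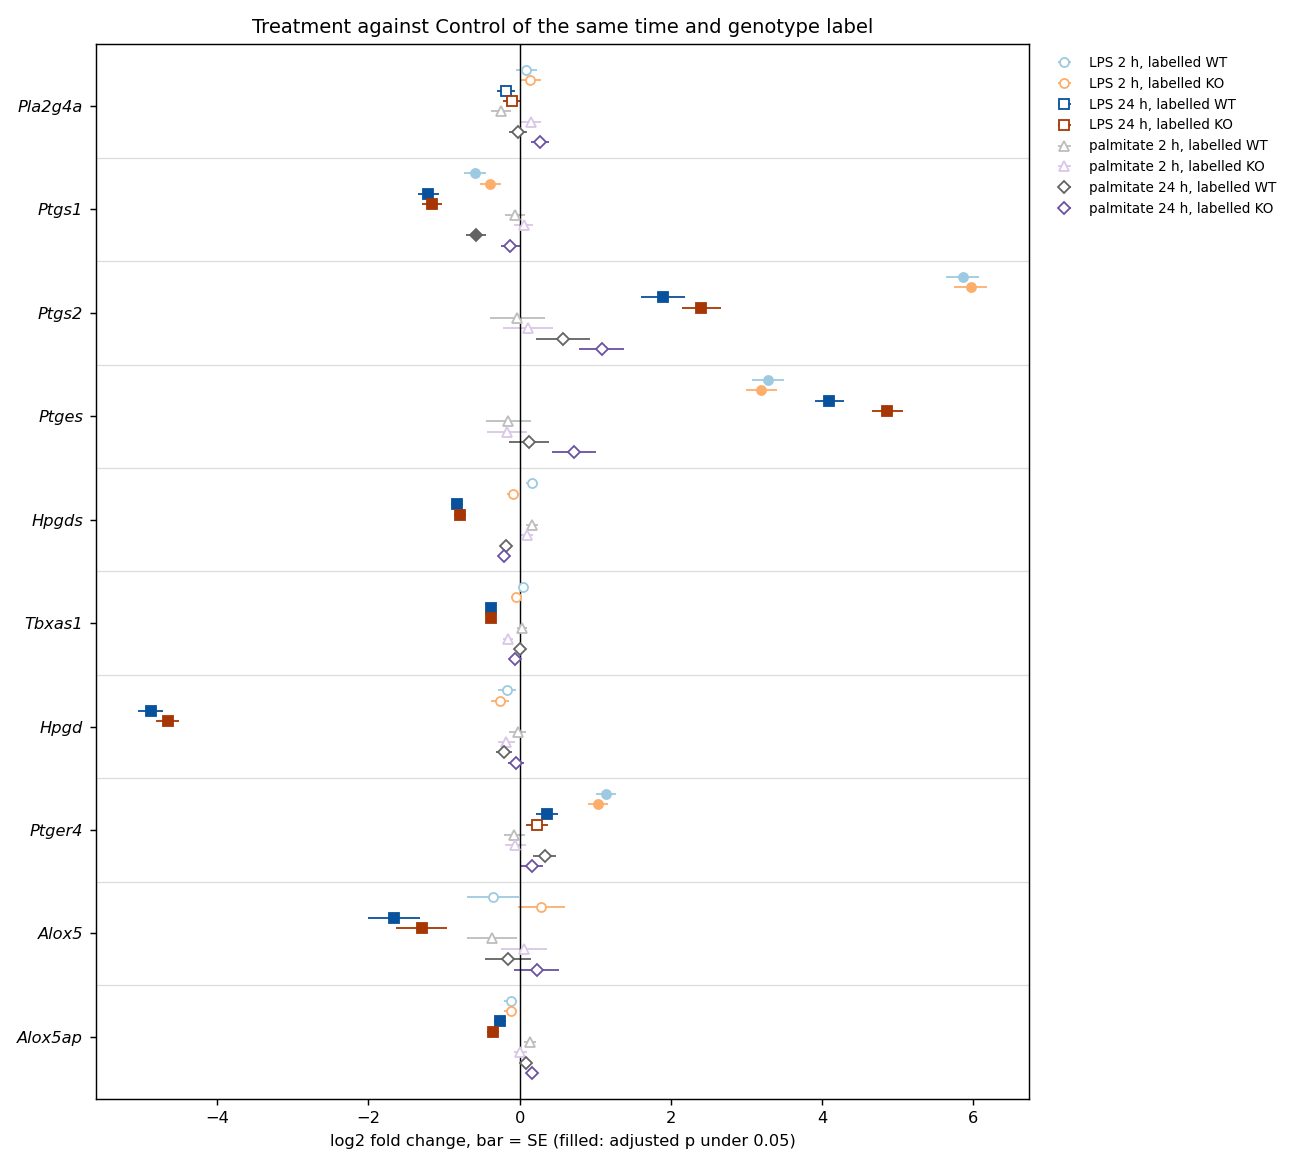
Log2 fold change of each gene against the Control of the same time and label, with bars for the SE and filled symbols for an adjusted p under 0.05 (edgeR quasi-likelihood test, 3 libraries against 3). Circles are LPS 2 h, squares LPS 24 h, triangles palmitate 2 h and diamonds palmitate 24 h; Ptgs2 lies near 6 at LPS 2 h, Ptges near 4 to 5 and Hpgd near -5 at LPS 24 h, and 1 palmitate symbol, Ptgs1 at 24 h in WT, is filled.

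Among the terminal synthases in the 10 genes, the one for prostaglandin E2 rose and those for prostaglandin D2 and thromboxane fell. Ptges (microsomal prostaglandin E synthase-1; ENSMUSG00000050737, chromosome 2, 30889471 to 30929863, minus strand, GRCm38) gave 4.84, 2.81 and 2.52 CPM in WT Control 2 h and 37.6, 31.9 and 28.8 CPM in WT LPS 2 h. KO libraries gave 3.98, 4.65 and 4.07 CPM and 34.2, 41.9 and 39.8 CPM. The groups were far apart in both labels, at 9.73-fold in WT (log2 fold change 3.28 with SE 0.21, adjusted p = 2.01e-18) and 9.16-fold in KO (log2 fold change 3.19 with SE 0.20, adjusted p = 7.59e-19).

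Unlike Ptgs2, Ptges was higher still at 24 h. Control 24 h gave 2.53, 6.0 and 3.79 CPM in WT and 2.48, 2.55 and 2.69 CPM in KO, and LPS 24 h gave 65, 84.6 and 70.1 CPM and 75.4, 63.5 and 88.6 CPM. Levels were 17.1-fold higher in WT (log2 fold change 4.09 with SE 0.19, adjusted p = 6.32e-24) and 29.1-fold higher in KO (log2 fold change 4.86 with SE 0.21, adjusted p = 1.16e-25). The late effect exceeded the early one by 1.67 with SE 0.33 (adjusted p = 5.89e-05) on the log2 scale in KO and by 0.81 with SE 0.32 (adjusted p = 0.0472) in WT. The WT call was lost without WT Control 2 h library 1, where the difference fell to 0.51 (adjusted p = 0.305), and without any of 5 other single libraries (WT LPS 2 h 2 or 3, WT Control 24 h 1 or 3, WT LPS 24 h 2; adjusted p = 0.0628, 0.0996, 0.135, 0.131 and 0.0992). It was also lost with all genes kept (adjusted p = 0.0876) and with only the libraries compared (0.0664).

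Hpgds (haematopoietic prostaglandin D synthase; ENSMUSG00000029919, chromosome 6, 65117293 to 65144908, minus strand, GRCm38) did not pass the test at 2 h, with log2 fold changes of 0.16 with SE 0.08 (adjusted p = 0.141) in WT and -0.09 with SE 0.08 (adjusted p = 0.479) in KO. At 24 h it gave 125, 148 and 129 CPM in WT Control and 78.2, 66.2 and 81.6 CPM in WT LPS, and 134, 154 and 151 CPM against 81.1, 85 and 88.1 CPM in KO. Every LPS library was below every Control library, with levels 1.78-fold lower in WT (log2 fold change -0.83 with SE 0.08, adjusted p = 1.85e-12) and 1.73-fold lower in KO (log2 fold change -0.79 with SE 0.08, adjusted p = 4.51e-12).

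Tbxas1 (thromboxane A synthase; ENSMUSG00000029925, chromosome 6, 38875404 to 39084585, plus strand, GRCm38) showed the same timing with a smaller change. Its log2 fold changes at 2 h were 0.04 (adjusted p = 0.741) in WT and -0.05 (adjusted p = 0.655) in KO. At 24 h WT gave 152, 144 and 131 CPM in Control and 109, 106 and 112 CPM in LPS, and KO gave 147, 158 and 154 CPM and 109, 119 and 126 CPM. The groups did not overlap, and the log2 fold change was -0.38 with SE 0.07 (adjusted p = 1.24e-05) in WT and -0.38 with SE 0.07 (adjusted p = 9.39e-06) in KO. The gene overlaps Hipk2, a gene on the other strand, but no exons overlap.

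The gene of prostaglandin breakdown fell at 24 h about as far as Ptges rose. Hpgd (15-hydroxyprostaglandin dehydrogenase, which inactivates prostaglandins; ENSMUSG00000031613, chromosome 8, 56294585 to 56321043, plus strand, GRCm38) gave 68.7, 78.6 and 68 CPM in WT Control 2 h and 63.7, 71.9 and 56.8 CPM in WT LPS 2 h. The KO values were 81.8, 79 and 85.7 CPM and 70.2, 73.3 and 62.1 CPM. Its log2 fold change at 2 h was -0.16 with SE 0.12 (adjusted p = 0.369) in WT, where the groups overlapped, and -0.26 with SE 0.12 (adjusted p = 0.103) in KO, where the highest LPS library lay below the lowest Control library. With all genes kept the KO value at 2 h passed (-0.29, adjusted p = 0.0328).

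At 24 h Hpgd fell from 126, 139 and 125 CPM to 3.94, 5.63 and 3.67 CPM in WT. In KO it fell from 151, 132 and 156 CPM to 8.5, 2.99 and 5.42 CPM. All 6 LPS libraries lay far below all 6 Control libraries, with levels 29.4-fold lower in WT (log2 fold change -4.88 with SE 0.16, adjusted p = 8.47e-30) and 25.2-fold lower in KO (log2 fold change -4.66 with SE 0.15, adjusted p = 3.61e-30).

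Set against each other per length, Ptges and Hpgd exchanged places. The ratio of Ptges to Hpgd, both in CPM per kb, was 0.00858, 0.0185 and 0.013 in WT Control 24 h and 0.00702, 0.00824 and 0.00737 in KO Control 24 h. At LPS 2 h it was 0.253, 0.19 and 0.217 in WT and 0.208, 0.245 and 0.274 in KO, and at LPS 24 h 7.07, 6.43 and 8.17 in WT and 3.8, 9.1 and 7.0 in KO. The RNA of Ptges thus exceeded that of Hpgd, per length, in the LPS 24 h libraries and in no other library. Other genes that make or break down prostaglandins did not enter this ratio. No test was run on this ratio either.

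**Figure D3:**
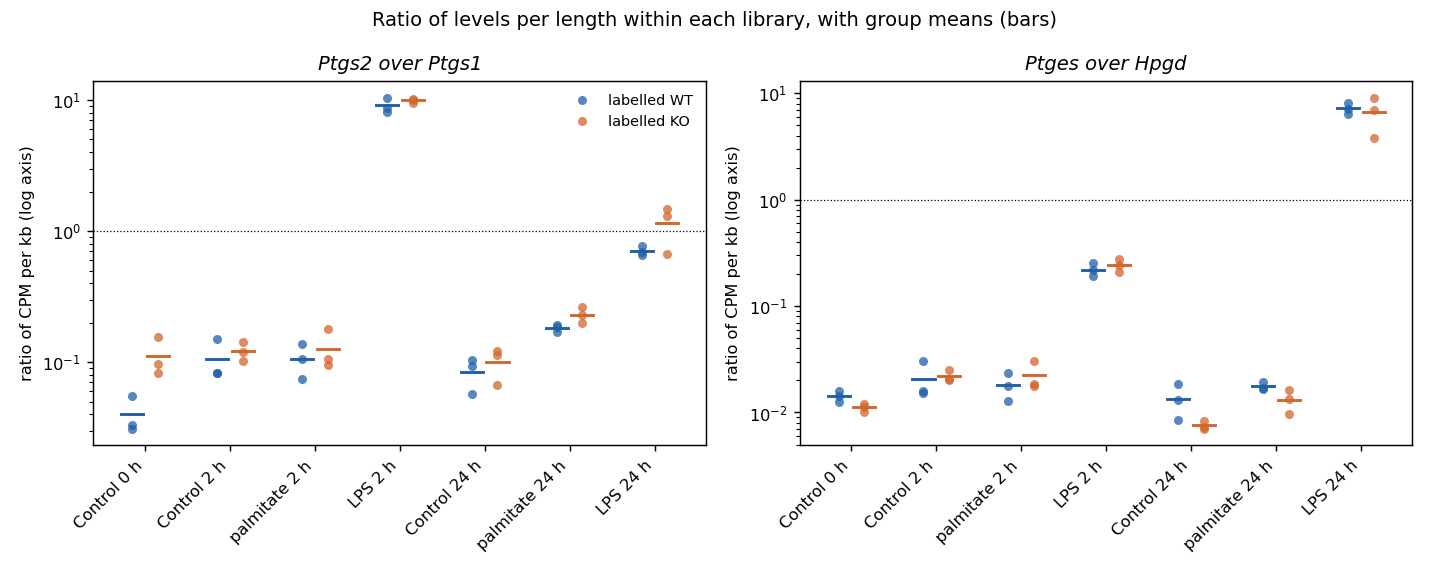
Ratio within each library of Ptgs2 to Ptgs1 (left) and of Ptges to Hpgd (right), each in CPM per kb of exon (log axis), in the 7 conditions, with bars for the means of 3 libraries and a dotted line at 1. The left ratio is above 8 in all LPS 2 h libraries and the right one above 3.8 in all LPS 24 h libraries, while all Control and palmitate libraries lie under 0.27 on the left and under 0.031 on the right.

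The only receptor gene among the 10 rose early. Ptger4 (EP4, a receptor that raises cyclic AMP; ENSMUSG00000039942, chromosome 15, 5206661 to 5244187, minus strand, GRCm38) gave 27.9, 33.1 and 36.5 CPM in WT Control 2 h and 54.4, 81.2 and 77.1 CPM in WT LPS 2 h. The KO libraries gave 36.9, 34.6 and 36.3 CPM and 86.9, 70.1 and 65.7 CPM. The groups did not overlap in either label, at 2.2-fold in WT (log2 fold change 1.14 with SE 0.13, adjusted p = 7.69e-10) and 2.04-fold in KO (log2 fold change 1.03 with SE 0.13, adjusted p = 1.03e-08).

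By 24 h the Ptger4 levels in LPS were 28.1, 27.1 and 33.7 CPM in WT and 30.0, 27.3 and 29.4 CPM in KO, against 19.9, 23.1 and 25.5 CPM and 24.3, 26.1 and 23.9 CPM in Control. The log2 fold change was 0.36 with SE 0.15 (adjusted p = 0.0478) in WT and 0.22 with SE 0.15 (adjusted p = 0.226) in KO. The WT call at 24 h was lost with RLE size factors (adjusted p = 0.0532), with the DESeq2 Wald test (0.0523), with all genes kept (0.0679) and without WT Control library 1 (0.167) or 2 (0.0949), or WT LPS library 1 (0.0507) or 3 (0.239). Exons of Ptger4 overlap those of Ttc33 and Gm15937 on the other strand, and no source used here says if counting was strand-specific, so reads of these genes cannot be told apart.

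Of the members of the leukotriene branch, neither Alox5 nor Alox5ap passed the test at 2 h and both were called lower at 24 h. Alox5 (5-lipoxygenase; ENSMUSG00000025701, chromosome 6, 116410077 to 116461178, minus strand, GRCm38) was a low gene, with 9.1, 8.44 and 7.41 CPM in WT Control 2 h and 5.01, 7.81 and 6.13 CPM in WT LPS 2 h. In KO it gave 9.23, 9.85 and 10.0 CPM in Control 2 h and 20.9, 11.1 and 5.84 CPM in LPS 2 h, the group with the largest SD for this gene. The log2 fold changes were -0.36 with SE 0.34 (adjusted p = 0.519) and 0.29 with SE 0.32 (adjusted p = 0.579).

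At 24 h Alox5 gave 5.9, 12 and 14 CPM in WT Control and 1.54, 7.12 and 1.84 CPM in WT LPS. Control gave 9.44, 10.4 and 11.3 CPM in KO, and LPS 3.13, 5.04 and 4.69 CPM. The KO groups did not overlap, at a log2 fold change of -1.29 with SE 0.34 (adjusted p = 0.00147), whereas WT LPS library 2 lay above the lowest WT Control library. The log2 fold change in WT was -1.66 with SE 0.35 (adjusted p = 9.39e-05), and -2.69 without WT LPS 24 h library 2, the library that also stood above the others of its group for Ptgs1. The summed markers of neutrophils and their precursors in WT LPS 24 h reached 194 CPM in library 2 beside 119 and 122 CPM in the others (7 of 12 markers passed the filter, and Ly6g was at 0 in 40 of 42 libraries). Over the 42 libraries this sum ranged from 68.2 to 302 CPM, and Mmp8 alone, 1 of its markers, from 39.7 to 163.7 CPM. In KO the same sum went from 227 to 302 CPM in Control 24 h to 126 to 154 CPM in LPS 24 h. Sums of mast cell and basophil markers went from 13.3 to 15.7 CPM to 7.16 to 8.93 CPM in KO. The KO sums of eosinophil markers went from 9.44 to 16.8 CPM to 2.24 to 4.1 CPM, where 2 of 4 markers passed the filter and Epx was at 0 in 26 libraries. The KO sums of dendritic cell markers went from 7.36 to 10.4 CPM to 1.64 to 4.67 CPM, where 3 of 6 passed and Xcr1 was at 0 in 36 libraries. In WT the eosinophil sum went from 4.21 to 7.89 CPM to 0.993 to 2.45 CPM. The other WT sums of these kinds overlapped between Control 24 h and LPS 24 h. They were 143 to 153 and 119 to 194 CPM for neutrophils and precursors, and 4.95 to 6.51 and 2.65 to 7.2 CPM for mast cells and basophils. For dendritic cells they were 2.53 to 4.52 and 1.99 to 2.6 CPM. The WT sum of megakaryocyte and platelet markers rose, from 45.8 to 58 CPM to 66.5 to 74.3 CPM. In KO this sum went the other way, from 87.2 to 95.3 CPM to 53.4 to 87.6 CPM, with overlap. Of its 6 markers 4 passed the filter, and Gp9 and Gp1bb did not. The part of these cells in the levels of Alox5 and the other genes was not tested.

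Alox5ap (5-lipoxygenase activating protein; ENSMUSG00000060063, chromosome 5, 149264767 to 149288153, plus strand, GRCm38) gave 145, 157 and 149 CPM in WT Control 24 h and 123, 140.3 and 115 CPM in WT LPS 24 h. In KO it gave 147, 147 and 135 CPM and 107, 108 and 120.5 CPM. The groups did not overlap, and the log2 fold change was small, at -0.26 with SE 0.08 (adjusted p = 0.00827) in WT and -0.35 with SE 0.08 (adjusted p = 0.000328) in KO. The WT call was lost without WT Control library 2 (adjusted p = 0.0528) or WT LPS library 3 (0.0907). At 2 h the log2 fold change was -0.12 (adjusted p = 0.369) in WT and -0.12 (adjusted p = 0.373) in KO. In bulk RNA such as this, fewer cells of a type that holds a transcript and less RNA per cell cannot be told apart.

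Palmitate moved few of the 10 genes. At 2 h 0 of the 10 were called in WT (background 0.275%) or KO (background 0.112%) by the edgeR quasi-likelihood test. DESeq2 also called 0. In each label 1 gene had an unadjusted p under 0.05, beside 866 (WT) and 536 (KO) of all 11624 genes. At 24 h 1 gene was called in WT (background 0.852%) and 0 in KO (background 0.877%). DESeq2 called 1 and 0, beside 155 and 142 of all genes. An unadjusted p under 0.05 was found for 3 genes in WT and 4 in KO, beside 1049 and 927 of all genes. The gene called was Ptgs1, with 48.6, 46.3 and 47.9 CPM in WT Control and 28.7, 34.2 and 32.7 CPM in WT palmitate. These groups did not overlap, at a log2 fold change of -0.58 with SE 0.13 (adjusted p = 0.0154), but the call was lost without WT Control library 1 (adjusted p = 0.0647), 2 (0.0517) or 3 (0.0766), or WT palmitate library 1 (0.139). In KO the values were 58.8, 46.5 and 42.6 CPM and 50.6, 38.9 and 44.8 CPM, overlapping, with a log2 fold change of -0.12 with SE 0.13 (adjusted p = 0.910). The difference between the palmitate effects at 24 h and 2 h was called for 0 of the 10 genes in WT (background 0.241%) and KO (background 0.172%). DESeq2 also called 0 for this difference. It had an unadjusted p under 0.05 for 2 genes in WT and 3 in KO, beside 979 and 765 of all genes.

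Ptgs2 in palmitate at 24 h gave 6.23, 7.76 and 6.5 CPM in WT and 11.8, 10.5 and 13.8 CPM in KO, above all 3 Control libraries of the same label in both. The log2 fold change was 1.09 with SE 0.30 (adjusted p = 0.0651) in KO and 0.57 with SE 0.35 (adjusted p = 0.670) in WT, so neither passed the test. The KO value passed with all genes kept (adjusted p = 3.14e-06), with only the 6 libraries compared (0.00494) and without KO Control library 1 (0.0396). The remaining genes had log2 fold changes at 24 h between -0.21 (Hpgd) and 0.33 (Ptger4) in WT and between -0.21 (Hpgds) and 0.72 (Ptges) in KO.

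Libraries labelled KO and WT differed in several of these genes before any treatment. At Control 0 h, 6 of the 10 genes were called (background 12.5%), 5 higher (background 6.4%) and 1 lower (background 6.06%) under the KO label, and the median log2 fold change of the 10 was 0.31 beside 0.00 over all genes tested. The largest difference was in Ptgs2, with 1.45, 1.26 and 2.25 CPM in WT and 5.89, 3.94 and 9.72 CPM in KO, without overlap (3.79-fold, log2 fold change 1.92 with SE 0.43, adjusted p = 0.00158). Alox5 came next, with 7.78, 4.89 and 8.73 CPM in WT and 14.9, 12.7 and 20.2 CPM in KO, again without overlap (log2 fold change 1.15 with SE 0.30, adjusted p = 0.00746). Hpgd gave 99.5, 100.1 and 88.6 CPM in WT and 165, 122 and 159 CPM in KO, and the KO libraries were all higher (log2 fold change 0.63 with SE 0.10, adjusted p = 3.79e-05).

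Smaller differences at Control 0 h were called for Ptgs1 (log2 fold change 0.45 with SE 0.13, adjusted p = 0.0153), Pla2g4a (0.36 with SE 0.13, adjusted p = 0.0474) and, in the other direction, Alox5ap (-0.23 with SE 0.08, adjusted p = 0.0477). For Alox5ap the groups overlapped, with 144, 114 and 130.3 CPM in WT and 117, 97.9 and 116 CPM in KO, and its log2 fold change was -0.16 without WT library 1 and -0.14 without KO library 2. The Alox5ap call was lost with RLE size factors (adjusted p = 0.0599), with all genes kept (0.0728) and with only the libraries compared (0.0976). The log2 fold change of Pla2g4a, with 38.4, 40.9 and 37.6 CPM in WT and 60.9, 42.6 and 47.1 CPM in KO, was 0.21 without KO library 1. Leaving out single libraries ended the Ptgs1 call in 4 of 6 cases (WT 2 or 3, KO 1 or 3), the Alox5 call in 2 (WT 2 or KO 3), the Pla2g4a call in 5 (all but KO 2) and the Alox5ap call in 5 (all but WT 2), whereas Ptgs2 and Hpgd remained called with the highest adjusted p at 0.0497 and 0.00143. Hpgds, Tbxas1, Ptges and Ptger4 did not pass, with log2 fold changes of 0.16 (adjusted p = 0.187), -0.18 (adjusted p = 0.0742), 0.26 (adjusted p = 0.624) and 0.24 (adjusted p = 0.333).

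Markers of some other cells moved with the label at Control 0 h, in either direction. The summed level of 6 fibroblast markers was 42.1 to 69.3 CPM under the KO label and 0.529 to 0.905 CPM under WT, from the collagen genes Col1a1, Col1a2 and Col3a1, while Dcn, Pdgfra and Lum did not pass the filter. The sum of 12 neutrophil and precursor markers was 131 to 148 CPM in KO and 99.1 to 113 CPM in WT, and that of 9 mast cell and basophil markers 6.51 to 11 CPM and 2.53 to 5.95 CPM, with Tpsb2 and Cma1 at 0 in all libraries. The sum of 5 B cell markers, of which 1 passed the filter, went the other way, at 3.6 to 7.26 CPM in KO and 8.2 to 12.8 CPM in WT. Sums of megakaryocyte and platelet, eosinophil and dendritic cell markers overlapped between the labels. Markers of T or NK cells and of erythroid cells did not pass the filter. Differences of marker sums between the labels were not confined to 0 h. At Control 24 h the neutrophil and precursor sum was 227 to 302 CPM in KO and 143 to 153 CPM in WT. For mast cells and basophils it was 13.3 to 15.7 and 4.95 to 6.51 CPM. Sums of eosinophil, dendritic cell and megakaryocyte and platelet markers were also higher in KO without overlap. Those of fibroblast and B cell markers overlapped at that time. The part of other cells in the differences of the 10 genes was not tested.

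In the other 6 conditions the edgeR quasi-likelihood test called 0 of the 10 genes between the labels, and DESeq2 called 0 in each. At 2 h, 1 gene in Control, 3 in palmitate and 2 in LPS had an unadjusted p under 0.05. So did 1172, 1032 and 1342 of all 11624 genes tested. The shares of all genes called at an adjusted p under 0.05 were 0.49%, 0.146% and 0.465%. At 24 h, 1 gene in Control, 4 in palmitate and 3 in LPS had an unadjusted p under 0.05, beside 587, 891 and 1056 of all genes. Shares called at an adjusted p under 0.05 were 0.12%, 0.0688% and 0.146%. Nearest to the threshold was Ptgs2 at LPS 24 h, with 16.1, 23.2 and 12.2 CPM in WT and 34.7, 16.6 and 37.6 CPM in KO, where KO library 2 lay within the WT range (log2 fold change 0.82 with SE 0.20, adjusted p = 0.0988). It passed without WT LPS 24 h library 2 (1.09, adjusted p = 0.0174) or KO LPS 24 h library 2 (1.07, adjusted p = 0.00144), and with all genes kept (4.23e-07). The log2 fold change of Ptgs2 was above 0 in each of the 7 conditions, at 0.25 at Control 2 h, 0.39 at palmitate 2 h, 0.35 at LPS 2 h, 0.32 at Control 24 h and 0.83 at palmitate 24 h. With all genes kept Ptgs2 also passed at LPS 2 h (adjusted p = 0.0320) and at palmitate 24 h (0.00320). So did Ptgs1 (0.0316) and Hpgd (0.0388) at palmitate 24 h. Hpgds passed at Control 2 h with only the libraries compared (0.0282).

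**Figure D4:**
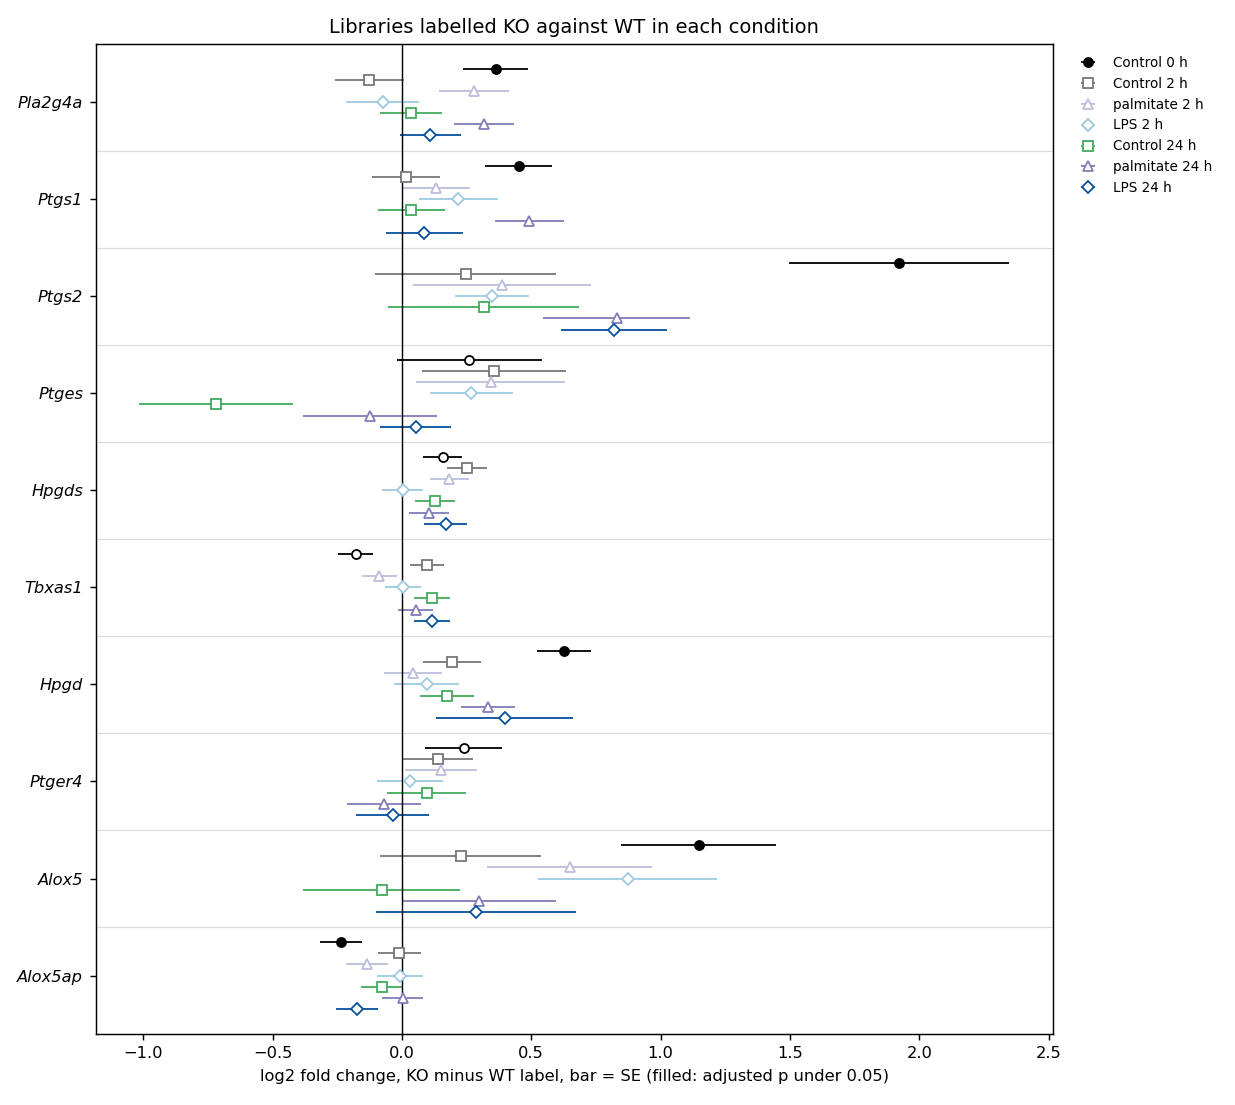
Log2 fold change of libraries labelled KO against those labelled WT for each gene in the 7 conditions, with bars for the SE and filled symbols for an adjusted p under 0.05 (edgeR quasi-likelihood test, 3 libraries against 3). Filled symbols appear at Control 0 h only, for 6 genes, and the Ptgs2 symbols lie right of 0 in all 7 conditions.

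Whether the response to a stimulus differed between the labels was tested directly. By the edgeR quasi-likelihood test 0 of the 10 genes were called for LPS or palmitate at 2 h or 24 h. DESeq2 also called 0. The background was 0% in 3 of these tests and 0.0086% for LPS at 24 h. In each test 1 gene had an unadjusted p under 0.05. So did 810 of all genes for LPS 2 h, 628 for LPS 24 h, 486 for palmitate 2 h and 411 for palmitate 24 h. The difference in the LPS response of Ptgs2, KO minus WT, was 0.10 with SE 0.38 on the log2 scale at 2 h and 0.50 with SE 0.43 at 24 h. For Ptges at 24 h it was 0.77 with SE 0.33 (adjusted p = 0.924) and for Hpgd 0.22 with SE 0.28 (adjusted p = 0.982). For Ptgs1 in palmitate at 24 h it was 0.46 with SE 0.18, with an unadjusted p of 0.0172, so the WT call for this gene does not show a difference between the labels.

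Time in culture without a stimulus also moved some of the genes. Taken as the mean over both labels, 3 of the 10 were called between Control 2 h and 0 h (background 16.7%). Ptger4 rose by 0.62 with SE 0.10 (adjusted p = 4.66e-06) on the log2 scale, from 17.7, 19.1 and 24.2 CPM in WT and 24.5, 22.3 and 25.9 in KO at 0 h to the 2 h values given above. Hpgd fell (log2 fold change -0.63 with SE 0.08, adjusted p = 4.00e-09), from 99.5, 100.1 and 88.6 CPM in WT and 165, 122 and 159 CPM in KO, and Pla2g4a by less (log2 fold change -0.36 with SE 0.09, adjusted p = 0.00334). Group means of Pla2g4a went from 6.09 to 5.64 CPM per kb in WT and from 7.86 to 5.16 CPM per kb in KO. Ptgs2 (0.70 with SE 0.28, adjusted p = 0.0854) did not pass, but did with DESeq2 (adjusted p = 0.0497), with all genes kept (0.00207) and with only the libraries compared (0.0428). Between 24 h and 0 h, 3 genes were called, all higher (background 16.5% in either direction and 7.9% higher), namely Pla2g4a (0.53 with SE 0.09, adjusted p = 7.11e-06), Alox5ap (0.29 with SE 0.06, adjusted p = 0.000114) and Hpgd (0.21 with SE 0.07, adjusted p = 0.0381). Group means of Pla2g4a and Alox5ap rose in both labels by 24 h. Those of Hpgd rose in WT only, from 57.1 to 77.3 CPM per kb, and were 88.1 and 87.2 CPM per kb in KO. The Hpgd call at 24 h was lost without WT Control 0 h library 3 (adjusted p = 0.115), KO Control 0 h library 2 (0.154), WT Control 24 h library 2 (0.101) or KO Control 24 h library 1 (0.0666) or 3 (0.0988).

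By the edgeR quasi-likelihood test the change of the label difference between Control times was called for 0 of the 10 genes. The background was 4.77% at 2 h and 1.83% at 24 h, each against 0 h. At each time 6 genes had an unadjusted p under 0.05, beside 2109 (2 h) and 1616 (24 h) of all 11624 genes. DESeq2 called 3 of the 10 at each time, beside 750 and 367 of all genes. For Ptgs2 the KO minus WT difference at 2 h less that at 0 h was -1.68 with SE 0.56 (adjusted p = 0.0714) on the log2 scale, and at 24 h less that at 0 h -1.61 with SE 0.58 (adjusted p = 0.161). For Hpgd these values were -0.43 with SE 0.15 (adjusted p = 0.0935) and -0.45 with SE 0.15 (adjusted p = 0.107). These calls depended on the fit. For Ptgs2 the change to 2 h passed with DESeq2 (adjusted p = 0.0299), with all genes kept (0.000394), with only the libraries compared (0.0326) and without KO Control 0 h library 2 (0.0250). Its change to 24 h passed with DESeq2 (0.0483) and with all genes kept (0.00178). For Hpgd both changes passed with DESeq2 (adjusted p = 0.0483 at 2 h and 0.0319 at 24 h), with all genes kept (0.0319 and 0.0152), with only the libraries compared (0.0361 and 0.0253) and without KO Control 0 h library 2 (0.0136 and 0.00857). The third gene that DESeq2 called at each time was Tbxas1 (0.0420 and 0.0343). Alox5 passed at 24 h with all genes kept (0.0152) and with only the libraries compared (0.0270). Pla2g4a passed at 2 h without KO Control 0 h library 2 (0.0400) or KO Control 2 h library 2 (0.0478).

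Other genes of eicosanoid metabolism were taken from 7 lists by role. Beside the 10 genes these lists held 67 others, of which 39 were tested, 27 did not pass the filter and Pla2g4b was not matched. At LPS 2 h, 3 of the 39 were higher and 0 lower in WT, where 23.1% of all genes were called, and 5 higher and 2 lower in KO, where 23.9% were. At LPS 24 h, 7 were higher and 12 lower in WT (all genes 39.5% called, 19.9% lower), and 6 higher and 17 lower in KO (all genes 40.9% called, 21% lower), with a median log2 fold change of 0.01 in WT and -0.06 in KO. Palmitate at 24 h raised 2 in WT (Anxa1 and Akr1b3) and 4 in KO (Lpcat3, Akr1b3, Abcc4 and Fpr2) and lowered 0, beside 0.852% and 0.877% of all genes called. Between labels at Control 0 h, 7 were higher and 3 lower in KO (all genes 12.5% called, 6.4% higher and 6.06% lower), the largest being Mgst2, a microsomal glutathione S-transferase, at 2.07 with SE 0.46 (adjusted p = 0.00164).

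Among 12 tested genes of arachidonate release and re-esterification, 2 were higher and 5 lower at LPS 24 h in each label, beside 39.5% of all genes called in WT and 40.9% in KO. Daglb, a diacylglycerol lipase, had log2 fold changes of -1.23 with SE 0.09 (adjusted p = 1.91e-16) in WT and -1.26 with SE 0.09 (adjusted p = 5.00e-17) in KO. Anxa1 (annexin A1, a restrainer of phospholipase activity) also fell, with log2 fold changes of -0.89 with SE 0.10 (adjusted p = 2.97e-10) and -1.22 with SE 0.10 (adjusted p = 1.22e-14). Pla2g7, the platelet-activating factor acetylhydrolase, rose by 0.83 with SE 0.07 (adjusted p = 1.15e-13) in WT and 0.70 with SE 0.07 (adjusted p = 2.40e-11) in KO, and Acsl4, which couples arachidonic acid to coenzyme A, by 0.37 with SE 0.07 (adjusted p = 1.70e-05) and 0.30 with SE 0.07 (adjusted p = 0.000394). Of 5 other prostanoid synthesis genes, Prxl2b, a prostaglandin F synthase, rose at 24 h in both labels (1.17 with SE 0.21, adjusted p = 7.74e-06 in WT and 1.19 with SE 0.22, adjusted p = 1.14e-05 in KO). Ptges3, the cytosolic prostaglandin E synthase, was higher in WT (0.21 with SE 0.08, adjusted p = 0.0362) and had 0.12 (adjusted p = 0.261) in KO.

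Of 4 other tested genes of prostaglandin degradation and transport, 2 in WT and 4 in KO were lower at LPS 24 h and 0 were higher, beside 19.9% of all genes lower in WT and 21% in KO. Zadh2, a prostaglandin reductase, had log2 fold changes of -0.54 with SE 0.13 (adjusted p = 0.000892) in WT and -0.99 with SE 0.14 (adjusted p = 3.55e-08) in KO. Those of Abcc4, an exporter of prostaglandins, were -0.32 with SE 0.10 (adjusted p = 0.00818) and -0.41 with SE 0.10 (adjusted p = 0.000938). Of the other prostanoid receptors, 3 were tested and 5 were too low. Ptgir, the prostacyclin receptor, rose at LPS 2 h in KO (0.89 with SE 0.21, adjusted p = 0.00115) and had 0.47 (adjusted p = 0.117) in WT. Ptger3, an inhibitory prostaglandin E2 receptor, was called lower at 24 h in WT (-2.57 with SE 0.95, adjusted p = 0.0269) from only 1.68, 1.03 and 0.728 CPM in Control and 0, 0.331 and 0.153 CPM in LPS, values around the level of 3 counts.

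In the 5-lipoxygenase branch, 10 other genes were tested, of which 1 was higher and 3 were lower at LPS 24 h in WT (all genes 39.5% called), and 1 higher and 6 lower in KO (all genes 40.9% called). At LPS 2 h 1 of the 10 was called in KO, Abcc1, which was then higher (0.35 with SE 0.07, adjusted p = 0.000106, with 0.06, adjusted p = 0.617 in WT). Mgst3, a glutathione S-transferase that can make leukotriene C4, fell with log2 fold changes of -1.63 with SE 0.24 (adjusted p = 9.31e-08) in WT and -1.5 with SE 0.24 (adjusted p = 6.07e-07) in KO. Ggt5, which converts leukotriene C4 to D4, fell in both labels (-1.37 with SE 0.37, adjusted p = 0.00241 in WT, -1.25 with SE 0.38, adjusted p = 0.00645 in KO), as did Abcc1, a leukotriene C4 exporter (-0.64 with SE 0.07, adjusted p = 5.34e-11 in WT, -0.57 with SE 0.07, adjusted p = 1.69e-09 in KO). Cyp4f16 was the gene that rose (0.74 with SE 0.20, adjusted p = 0.00273 in WT and 0.60 with SE 0.20, adjusted p = 0.0130 in KO). Of 2 tested genes of other lipoxygenases and epoxide hydrolases, Ephx1, an epoxide hydrolase, was lower in both labels, with log2 fold changes of -1.25 with SE 0.13 (adjusted p = 2.52e-11) in WT and -1.48 with SE 0.13 (adjusted p = 1.52e-13) in KO, and Alox12 in KO (-1.74 with SE 0.54, adjusted p = 0.00779), with -1.27 (adjusted p = 0.132) in WT.

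Among receptors of leukotrienes and lipoxins 3 were tested, of which 2 rose at LPS 24 h in both labels, beside 39.5% of all genes called in WT and 40.9% in KO. Fpr2, a formyl peptide receptor that also binds lipoxin A4, gave 4.49, 5.66 and 2.62 CPM in WT Control 24 h and 77.9, 117 and 80.8 CPM in WT LPS 24 h, without overlap (22-fold, log2 fold change 4.46 with SE 0.21, adjusted p = 4.50e-24), and in KO the log2 fold change was 4.32 with SE 0.21 (adjusted p = 1.24e-23). It had already risen at 2 h, by 2.24 with SE 0.24 (adjusted p = 5.76e-11) in WT and 2.35 with SE 0.22 (adjusted p = 1.16e-12) in KO. Cysltr1, a receptor of cysteinyl leukotrienes, gave 11.2, 13.4 and 9.76 CPM in WT Control 24 h and 25.5, 25.2 and 26.3 CPM in WT LPS 24 h (log2 fold change 1.17 with SE 0.19, adjusted p = 1.81e-06) and rose by 1.33 with SE 0.20 (adjusted p = 1.84e-07) in KO. The leukotriene B4 receptor genes Ltb4r1 and Ltb4r2 did not pass the filter, with at most 7 and 2 counts in a library.

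**Figure D5:**
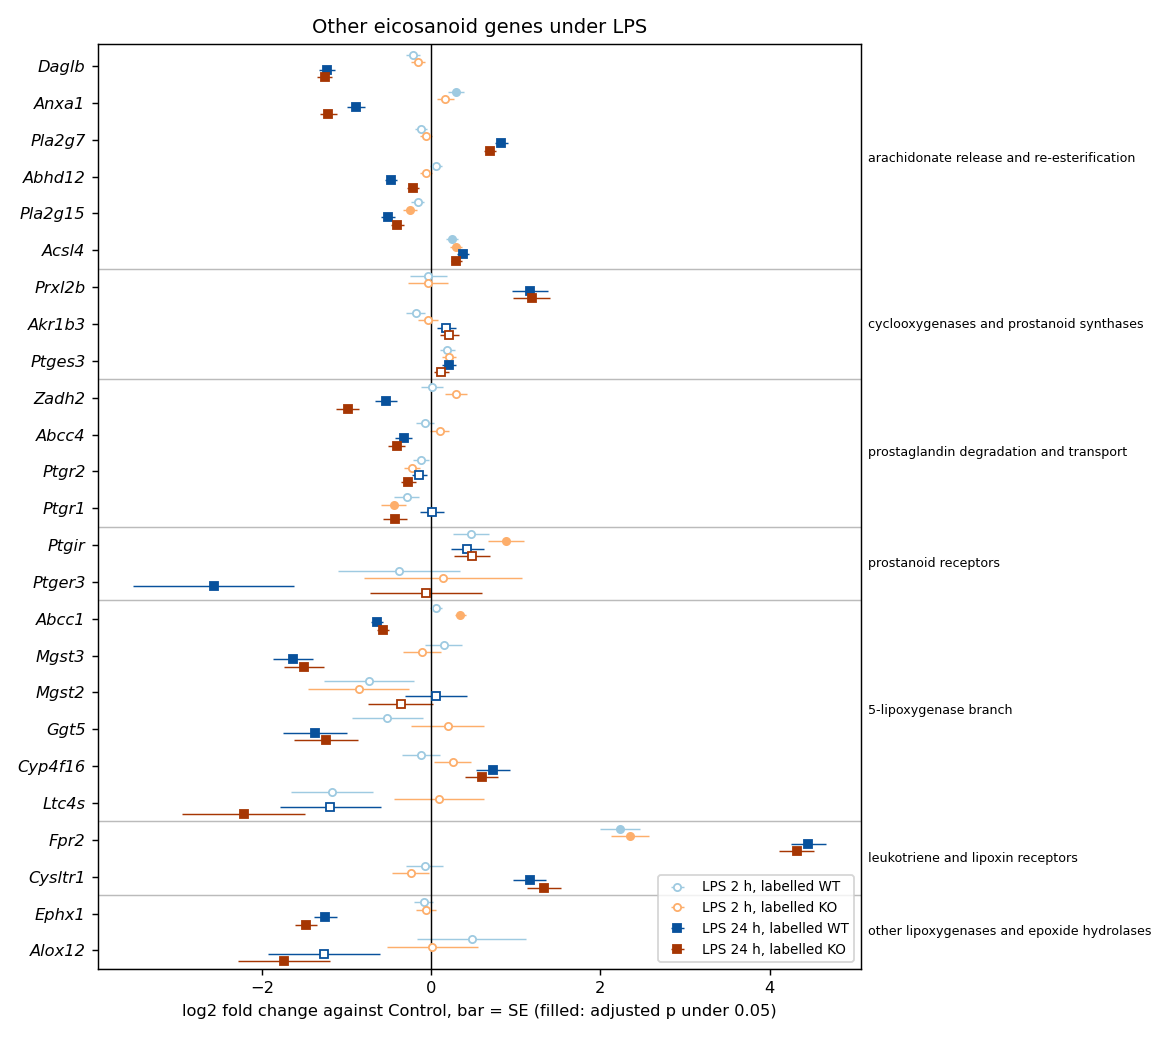
Log2 fold change under LPS of 25 other genes of eicosanoid metabolism, grouped by role, with bars for the SE and filled symbols for an adjusted p under 0.05 (edgeR quasi-likelihood test, 3 libraries against 3). Circles are 2 h and squares 24 h; Fpr2 lies furthest right at both times, and Daglb, Anxa1, Mgst3, Ggt5 and Ephx1 lie left of 0 at 24 h in both labels.

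The genes whose mean levels followed each member most closely over the 14 groups were ranked by Pearson's r of log2 CPM, a description over 14 group means that share the same 42 libraries. Nearest to Ptgs2 were Brd2 (r = 0.988), Stx11 (0.983) and Pcdh7 (0.976), nearest to Ptges were Sod2 (0.995), Mocs1 (0.993) and Shisa3 (0.990), and nearest to Ptger4 were Phlda1 (0.982), Nfkbie (0.981) and Msl2 (0.981). Hpgd was followed most closely by Ptpra (0.995), Cd28 (0.986) and Gramd4 (0.980), and Hpgds by Bcl2 (0.973), Cenpe (0.965) and Kif15 (0.962). For Tbxas1 the nearest was Tbc1d4 (0.965), for Pla2g4a Pkm (0.958), for Alox5 Abcb4 (0.951), for Ptgs1 Kif20b (0.937) and for Alox5ap Dap (0.935). Among the members themselves, r was 0.893 between Ptgs2 and Ptger4, 0.882 between Hpgds and Tbxas1, 0.881 between Hpgd and Alox5, -0.892 between Ptgs1 and Ptges and -0.815 between Ptges and Hpgd. No test was run on these coefficients.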

How the data were processed

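Gene expression was measured by ribosomal-RNA-depleted, stranded paired-end RNA-seq of 42 macrophage libraries. The authors deposited 1 table of raw read counts per gene and library, with no normalization. The submitters' processing notes name STAR 2.7.3a, fastp 0.19.11 and mm10, and the annotation and strand setting of the counting are not given in the sources used here. Table columns carry group names only, so libraries 1 to 3 of a group are in column order and only named by it. No pair of libraries of a group agreed within sampling noise (chi-square per degree of freedom 1.93 to 9.32 over 42 pairs).

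Of 37310 identifiers 32620 had a symbol and 12146 were at 0 in all libraries. Counts were analysed with edgeR 4.0.16 in R 4.3.3. All 42 libraries entered a single quasi-likelihood fit with 1 mean per group, after filterByExpr and TMM normalization, and 27 contrasts were tested. P-values were two-sided and adjusted by Benjamini and Hochberg across all 11624 tested genes, with 0.05 as the threshold for a call. Each SE was derived from the test, as the absolute log2 fold change divided by the square root of the quasi-likelihood F statistic. An exact permutation test of 3 libraries against 3 cannot give a p below 0.1 and was not used. Levels are TMM-scaled CPM, and CPM per kb uses the union of GENCODE exons on GRCm38. Alternatives were RLE size factors, all genes with at least 1 count, DESeq2 1.42.0, fits of only the libraries compared and leaving out each library. Scripts were tested on simulated data.

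All 10 members are named, as are, of 7 wider lists, at most 6 genes per list that passed a test, and the 3 genes most like each member in group means. The members and lists were chosen with earlier results of these data known.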

Additional observations from a re-analysis of the deposited data

Results flagged for a closer look

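The effect of LPS at 24 h differed from that at 2 h for 8 of the 10 genes in each label by a test of the difference itself (edgeR quasi-likelihood test, Benjamini-Hochberg adjustment, background 32.6% in WT and 33.4% in KO). The LPS effects at the 2 times use different libraries and different Controls. The difference, 24 h minus 2 h on the log2 scale, was largest for Hpgd, at -4.72 (adjusted p = 8.57e-24) in WT and -4.39 (adjusted p = 2.08e-23) in KO, and next for Ptgs2, at -3.96 (adjusted p = 3.91e-10) and -3.56 (adjusted p = 3.56e-10). Ptges was the only gene of the 8 with a positive difference, at 0.81 (adjusted p = 0.0472) in WT and 1.67 (adjusted p = 5.89e-05) in KO. For Hpgds it was -1.0 (adjusted p = 3.50e-10) and -0.70 (adjusted p = 1.08e-06), for Ptger4 -0.78 (adjusted p = 0.00147) and -0.81 (adjusted p = 0.000969), for Ptgs1 -0.62 (adjusted p = 0.0138) and -0.77 (adjusted p = 0.00165), and for Tbxas1 -0.42 (adjusted p = 0.000578) and -0.33 (adjusted p = 0.00705).

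For Alox5 the difference was -1.3 (adjusted p = 0.0367) in WT and -1.58 (adjusted p = 0.00594) in KO. Without WT LPS 24 h library 2 the WT value was -2.33. The WT call was lost without any of 8 other libraries, numbers 2 or 3 of WT Control 2 h, WT LPS 2 h and WT Control 24 h and numbers 1 or 3 of WT LPS 24 h (adjusted p = 0.0535 to 0.147), with DESeq2 (0.0660) and with only the libraries compared (0.0545). The KO call was lost without KO LPS 2 h library 1 (-1.10, adjusted p = 0.0614). The Ptgs1 call in WT was lost without WT LPS 24 h library 1 (adjusted p = 0.0565) or 3 (0.0922). The Tbxas1 call in KO was lost without KO LPS 2 h library 1 (adjusted p = 0.0622) or KO LPS 24 h library 1 (0.0510).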

How the results depend on the processing

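No log2 fold change of a member that was called changed sign under any alternative. Over the 270 values of 10 members in 27 contrasts, the side of the threshold was kept by 268 with RLE size factors, 260 with DESeq2, 259 with only the libraries compared and 253 with all genes kept. Of the same values with each library left out in turn, 2275 kept it, 53 lost a call and 12 gained one. The number of members called moved beyond 1.5-fold as follows, and the cause was not tested. With all genes kept it was 1 in place of 0 for palmitate 24 h in KO, for KO against WT at LPS 2 h and at LPS 24 h, 3 for KO against WT at palmitate 24 h, and 2 and 3 for the change of the label difference from Control 0 h to 2 h and 24 h. With only the libraries compared it was 1 for palmitate 24 h in KO and for KO against WT at Control 2 h, 2 for both changes of the label difference, and 5 in place of 3 for Control 2 h against 0 h. With DESeq2 it was 5 for Control 2 h against 0 h and 3 for both changes of the label difference. Without single libraries the count ran from 2 to 5 for KO against WT at Control 0 h, 0 to 1 for palmitate 24 h in WT and in KO and for KO against WT at LPS 24 h, 0 to 3 for the change of the label difference to 2 h and 0 to 1 for that to 24 h.

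Over all genes, 32 were called for palmitate 2 h in WT (76 with all genes kept, 83 with only the libraries compared), 13 in KO (34, 21, and 21 with DESeq2), 99 for palmitate 24 h in WT (167 with all genes kept, 155 with DESeq2) and 102 in KO (182 and 226 with only the libraries compared). Between labels, with all genes kept, DESeq2 and only the libraries compared in this order, 57 at Control 2 h became 176, 92 and 235, 17 at palmitate 2 h 130, 44 and 96, 54 at LPS 2 h 190, 86 and 23, 8 at palmitate 24 h 75, 18 and 20, and 17 at LPS 24 h 112, 44 and 9. At Control 24 h 14 became 55 with all genes kept and 52 with only the libraries compared. The 24 h less 2 h palmitate effect gave 28 in WT (123, 83 and 100) and 20 in KO (103, and 54 with only the libraries compared). The change of the label difference to Control 24 h gave 213 (367, 367 and 409). The difference in response between labels gave 1 for LPS 24 h (26, 2 and 0), 0 for LPS 2 h (43 and 4 with DESeq2) and 0 for palmitate 2 h and 24 h (16 and 9 with all genes kept).

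No paired analysis was possible because the columns of the count table carry no replicate number. Depth limits the low genes: 3 counts correspond to 0.387 to 1.05 CPM, so Ptgs2 and Ptges before stimulation rest on few reads, down to 8 and 9 counts in a library.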
